A study of Mus musculus with 12 samples.

Results

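The regions described here are the 582432 autosomal entries of a list of differentially hydroxymethylated regions between control and Tet-deleted mouse retina. They were taken as every entry on chromosomes 1 to 19 of the 5hmC list, out of 592906 entries on all chromosomes and 786742 entries in the 5hmC and whole-genome bisulfite sequencing (WGBS) lists of the series together. All samples were whole retina of C57 BL/6J mice at postnatal day 21. In the Tet tcKO group the loxp alleles of Tet1, Tet2 and Tet3 were deleted by Chx10::Cre-GFP, a transgene active in retinal progenitor cells and known to act in a mosaic of them, so that some cells may have escaped deletion. To limit this, Cre+ breeders were crossed with each other, so that knockout animals carried 2 copies of the transgene. The Cre- controls, labelled WT, came from separate age-matched breeders rather than the same litters, and each library was made from the retinas of 2 animals. Bisulfite-assisted APOBEC-coupled sequencing (bACE-seq), which reads 5hmC and not 5mC, was run on 3 libraries of each group. The list holds 1 mean level per group and region over those 3 libraries, so that no spread between libraries, no depth and no test can be given for any value here, and every difference is a description of these group means. The retinal identity of the samples could not be checked against marker expression, since a list of DNA regions holds none.

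TET1, TET2 and TET3 are dioxygenases that oxidise 5-methylcytosine (5mC) to 5-hydroxymethylcytosine (5hmC), which can be oxidised further and replaced by unmodified cytosine, or can persist in DNA. 5hmC is abundant in neurons, where it lies mainly in the bodies of transcribed genes and around enhancers, and it is scarce at CpG-rich promoters. WGBS does not separate 5mC from 5hmC and gives their sum, called modified cytosine here. Rods are the most abundant cells of a normal mouse retina. The cell makeup of the mutant retina was not analysed here, and a lower level in whole retina may come from a different makeup, with fewer cells of a type, or from less 5hmC per cell, which these data cannot tell apart.

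Of the 582432 regions, 582238 had a lower 5hmC level in Tet tcKO and are called losses (100% of the list to 3 significant digits), and 194 had a higher level and are called gains. The regions were put on the list because their 5hmC level differed, so neither this split nor the size of the fall is a finding of its own. The losses covered 467 megabases, with a median length of 524 bp and a median of 8 CpGs. Neighbouring losses lay close together, with a median gap of 1185 bp, and 44.1% of the gaps were shorter than 1 kb. They held 7427563 of the 20383623 CpGs of the autosomal reference, or 36.4%. A CpG outside them is one for which no difference was listed, which does not mean that it carried no 5hmC.

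Short losses and gains are printed whole to show what the regions look like, in the GRCm38 sequence of the plus strand, with every CG in capitals. The list's last base is the C of the last CpG, and its G has been added. The loss with the largest fall among those of at least 100 and under 300 bp with 5 or more CpGs is given first, and then the largest falls without repeat-masked bases at 2 to 3 and at 5 or more CpGs per 100 bp. A loss inside Thrb, the thyroid hormone receptor gene that acts in cones, stands for the photoreceptor genes, and the gains are the one with the largest rise and the largest without masked bases, again among those shorter than 300 bp.
chr19:47525789-47526050, in an intron of Stn1: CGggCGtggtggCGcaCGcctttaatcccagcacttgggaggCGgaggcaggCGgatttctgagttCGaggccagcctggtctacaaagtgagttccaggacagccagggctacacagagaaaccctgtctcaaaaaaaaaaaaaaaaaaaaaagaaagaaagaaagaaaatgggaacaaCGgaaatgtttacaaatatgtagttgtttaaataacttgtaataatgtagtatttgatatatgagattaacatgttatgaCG
chr14:61350165-61350364, in an intron of Ebpl: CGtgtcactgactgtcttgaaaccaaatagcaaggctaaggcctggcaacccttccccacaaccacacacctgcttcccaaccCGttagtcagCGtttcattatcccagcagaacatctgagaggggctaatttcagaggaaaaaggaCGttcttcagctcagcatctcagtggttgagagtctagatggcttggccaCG
chr9:94715138-94715257, in an intron of Slc9a9: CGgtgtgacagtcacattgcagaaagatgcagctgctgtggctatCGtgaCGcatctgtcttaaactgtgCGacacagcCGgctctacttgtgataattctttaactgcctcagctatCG
chr14:17990862-17991146, in an intron of Thrb: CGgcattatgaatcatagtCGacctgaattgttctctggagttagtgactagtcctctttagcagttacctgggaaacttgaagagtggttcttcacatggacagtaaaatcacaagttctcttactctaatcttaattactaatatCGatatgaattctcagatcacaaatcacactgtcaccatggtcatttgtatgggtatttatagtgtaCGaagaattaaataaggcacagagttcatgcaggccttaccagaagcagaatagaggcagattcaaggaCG
chr8:34546046-34546127, between genes: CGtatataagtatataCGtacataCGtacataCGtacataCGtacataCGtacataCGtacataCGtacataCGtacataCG
chr10:125197755-125197921, between genes: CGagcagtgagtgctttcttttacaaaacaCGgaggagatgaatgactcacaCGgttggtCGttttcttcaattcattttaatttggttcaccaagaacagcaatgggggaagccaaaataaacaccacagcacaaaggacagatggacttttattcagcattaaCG
The Stn1 loss held 9 CpGs, and 68.6% of its bases were soft-masked as repeats. It went from 51.8% to 5.46%, from Cre- to Tet tcKO. The Ebpl loss held 5 CpGs and fell from 46.7% to 6.396%. The Slc9a9 loss held 6 CpGs within 119 bp and fell from 39.1% to 0.183%. In Tet tcKO these intronic stretches were down to a level of 6.396% or less. The Thrb loss fell from 25.9% to 5.27%. The first gain was a run of a short tandem repeat with 10 CpGs, wholly soft-masked, and went from 25.9% to 61.4%. The gain on chromosome 10 went from 0.982% to 11.7%.

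Weighted by CpGs, the losses stood at 16.2% in Cre- and at 3.88% in Tet tcKO, so that 24.0% of the control level was kept. Incomplete conversion can add to both levels, and its part in this share was not tested. With 2 points subtracted from both as an allowance for such a background, the levels were 14.2% and 1.88% and the share kept was 13.3%. The median loss went from 13.9% to 3.09%, and the fall had an SD over regions of 4.91 percentage points, with 10% of losses falling by more than 18.0 points and 10% by less than 6.00 points. Of all losses, 76.4% kept between 10% and 30% of their control level. In 40146 losses less than 10% was kept, and in 987 at least 50% was kept. Across the 582238 losses the level in Tet tcKO ran with that in Cre- (Spearman's rho 0.791), and the share kept hardly did (rho 0.151). All points share the same libraries, the share kept is computed from the Cre- level, and the regions were chosen on the difference of both levels.

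**Figure D1:**
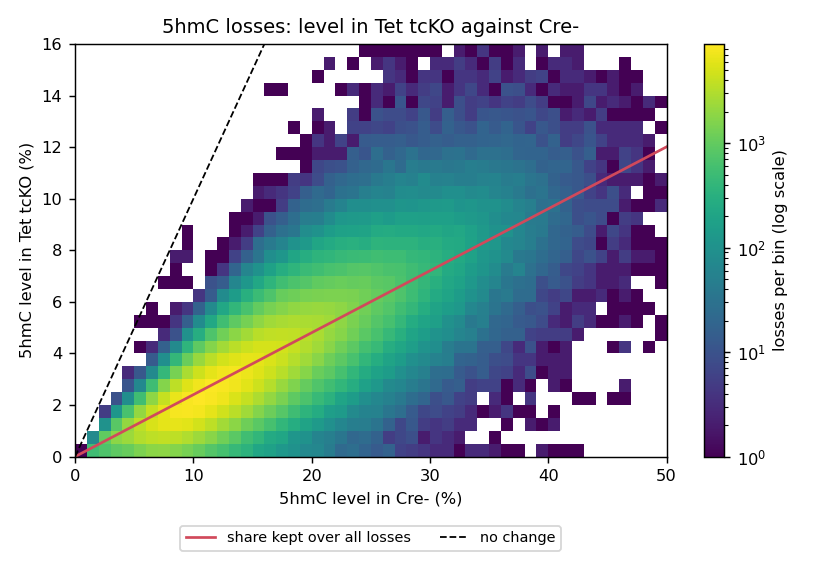
The 5hmC level of each loss in Tet tcKO (vertical axis, %) against its level in Cre- (horizontal axis, %), as the number of losses per bin on a log colour scale. The losses follow the red line, which marks 24.0% of the control level, and lie below the dashed line of no change, with 582013 of the 582238 losses inside the axes.

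Grouped by their starting level, losses below 5% in Cre- fell from 3.77% to 0.835% and kept 22.1%. Losses that started between 10% and 15% fell from 12.6% to 2.91% and kept 23.2%. Losses that started at 30% or more fell from 33.5% to 8.38% and kept 25.02%. The fall in points therefore grew from 2.93 in the lowest class to 25.1 in the highest, and the share kept moved by 2.87 points between them. This small rise depends on the baseline: with 2 points subtracted from both levels the share kept ran from 8.61% in the class from 10% to 15% to 20.3% in the class from 30%. The classes below 5% and from 5% to 10% stood at 0.835% and 1.78% in Tet tcKO. The allowance of 2 points was larger than these levels, so no such share can be given for them. A fall of at least 20 points was listed for 35140 losses, or 6.04%, which by construction came from the classes starting at 20% or more. The lowest class was unlike the others in its sequence: its median length was 139 bp, its median density 5.38 CpGs per 100 bp, and its median GC content 55.9%. The highest class had a median length of 947 bp, 1.153 CpGs per 100 bp and 43.3% GC.

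The level followed CpG density. Losses with fewer than 1 CpG per 100 bp stood at 20.6% in Cre- and 4.41% in Tet tcKO, and those with 5 or more stood at 7.64% and 2.23%. The part retained was 21.3% in the CpG-poor class and 29.1% in the CpG-dense class, and it increased at each step between them. The Tet tcKO level of the CpG-dense class, 2.23%, was close to the allowance of 2 points for background. The order of these pooled shares therefore depends on the baseline, and shares by density were not computed with the subtraction. Without it, the higher share in CpG-dense losses was also present within a single class of starting level. Among losses that started between 10% and 15%, 17.2% was kept at fewer than 1 CpG per 100 bp and 29.9% at 5 or more. Among those starting between 20% and 30%, the values were 22.4% and 33.7%. Within a single class of density, the share kept was also higher in the highest starting class than in the lowest, but it did not increase at each step. At fewer than 1 CpG per 100 bp it was 20.9% below 5%, 13.3% from 5% to 10% and 23.7% at 30% or more. At 1 to 2 CpGs per 100 bp it was 14.9% for losses starting below 5% and 25.4% for those starting at 30% or more. At 5 or more CpGs per 100 bp it was 24.8% and 40.4%, but the latter class held only 205 losses. At that density the median share kept per loss was 24.0% below 5%, 30.6% from 15% to 20% and 26.7% at 30% or more. CpG-dense losses start low and CpG-poor losses start high, so the pooled shares by starting level spread less than those within a density class.

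Counted over all reference CpGs rather than over regions, the chance of lying in a loss was greatest at intermediate CpG density. Density was taken here as reference CpGs per 100 bp in the surrounding 1 kb. Of the CpGs with a density under 0.5, 8.78% lay in a loss. At a density of 1.5 to 2, it was 62.3%, and at 10 and over it was 2.26%. The Cre- level of the CpGs that did lie in losses fell steadily over the same classes, from 20.0% to 6.93%. Regions were called with a minimum number of CpGs, but CpG-poor losses were listed too. Those with fewer than 1 CpG per 100 bp of their own length numbered 75972, at a median length of 999 bp. The part of region calling, of coverage or of a low level in the small share at sparse CpGs was not tested. Soft-masked repeats held 5021049 of the CpGs, and 22.7% of these lay in losses, against 40.9% of the unmasked CpGs. The levels of those that did were alike, with 15.8% in Cre- and 3.71% in Tet tcKO inside repeats and 16.2% and 3.90% outside. Coverage, which can be lower in repeats, was not analysed here.

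**Figure D2:**
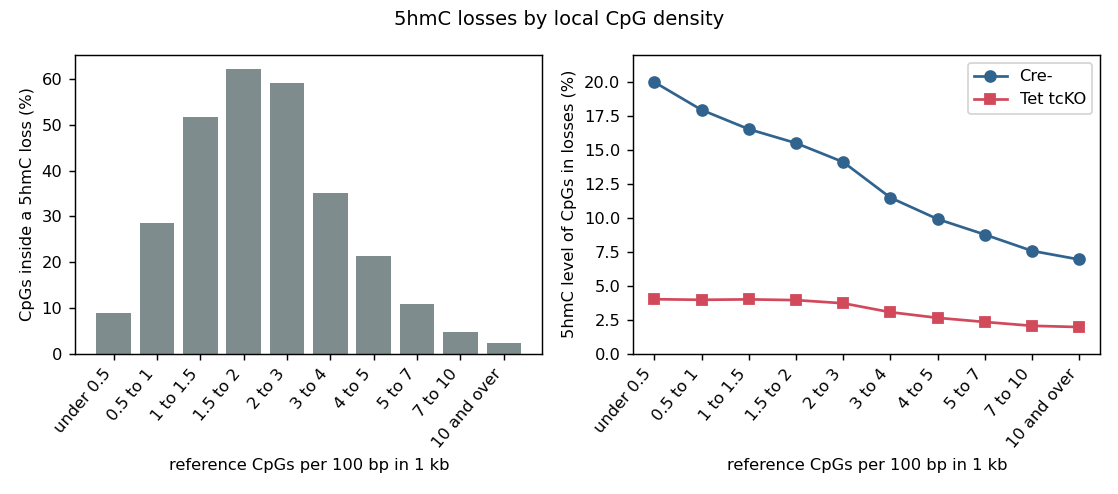
Left, the share of autosomal reference CpGs that lie inside a 5hmC loss (%), by CpG density in the surrounding 1 kb; right, the mean 5hmC level (%) of the CpGs inside losses in Cre- and Tet tcKO. The share peaks at 62.3% in the class from 1.5 to 2, while the Cre- level falls from 20.0% to 6.93% from the sparsest to the densest class.

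Losses were placed by gene part at their midpoint, with promoter meaning within 2 kb of an annotated transcription start. Introns held 295462 losses with a level of 17.6% in Cre- and 4.26% in Tet tcKO, the highest Cre- level of the parts. The 5′ UTR losses, of which there were 313, stood at 16.6% and 4.13%. Promoter losses numbered 44029 and stood at 15.2% and 3.76%. Intergenic losses stood at 14.4% and 3.34%, and losses in coding exons at 12.9% and 3.30%, the lowest Cre- level. The share kept was close to equal throughout, from 23.2% in intergenic losses to 25.6% in coding exons. Falls of at least 20 points made up 8.56% of intronic losses, 5.55% of promoter losses, 3.01% of intergenic losses and 2.67% of coding exon losses, beside the 6.04% of all losses.

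Coding exons had a low level but were widely covered. Of their CpGs, 60.4% lay in a loss, compared with 47.2% in introns, 27.6% in promoters and 26.1% between genes. The order depended on density. At 3 to 5 CpGs per 100 bp, 79.4% of coding exon CpGs lay in a loss, against 39.3% in introns, 23.4% in promoters and 18.8% between genes. At fewer than 1 CpG per 100 bp the shares in coding exons and introns were 32.3% and 31.2%, and that between genes was 14.0%. At 5 or more, 53.2% of coding exon CpGs but 3.96% of promoter CpGs lay in a loss. CpGs between genes became rarer in losses with distance from a transcription start, from 36.9% at 2 to 5 kb to 5.73% beyond 500 kb. Over the same distances their Cre- level went from 15.3% to 11.2%, and the share kept from 23.5% to 18.9%.

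Around the transcription starts of 20807 protein-coding genes, the losses left a gap whose depth followed CpG density. The 9044 start sites with 5 or more CpGs per 100 bp in the surrounding 1 kb had 2.07% of the CpGs in the first 500 bp downstream in a loss, and those stood at 7.42% in Cre- and 1.88% in Tet tcKO. At 3 to 3.5 kb downstream of the same starts, 63.2% lay in a loss, at 19.7% and 4.89%. On the upstream side the share was lower, at 47.6% between 2.5 and 3 kb, with 16.4% in Cre-. The 7251 start sites with fewer than 2 CpGs per 100 bp had no gap. There, 37.2% of the CpGs in the first 500 bp lay in a loss, slightly more than the 32.5% at 3 to 3.5 kb, with a level of 14.2% in Cre- and 3.42% in Tet tcKO. Of the control level, 25.3% was kept in the first 500 bp of CpG-dense starts and 24.1% in those of CpG-poor starts. The Tet tcKO level at the CpG-dense starts, 1.88%, was below the allowance of 2 points for background. No share with that subtraction can be given for them, so these shares do not show equal retention.

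**Figure D3:**
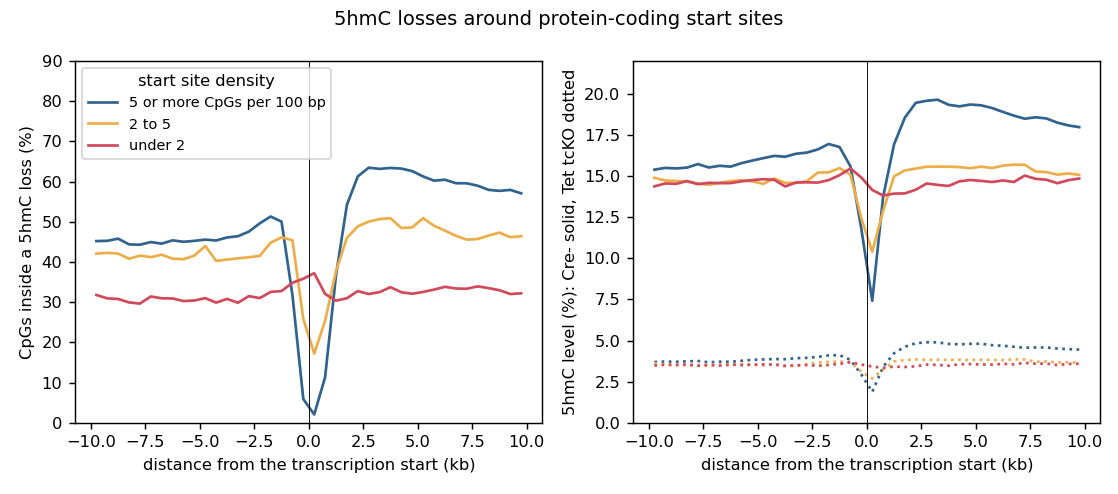
CpGs inside a 5hmC loss (left, %) and the 5hmC level of those CpGs (right, %, Cre- solid and Tet tcKO dotted) in 500 bp bins around protein-coding transcription starts, by CpG density of the start site. CpG-dense starts have 2.07% of CpGs in a loss just downstream of the start and 63.2% at 3 kb, while CpG-poor starts show no gap.

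Along the bodies of the 9678 protein-coding genes of 20 kb or more, the control level declined from the 5′ to the 3′ end. It stood at 19.4% in the second bin and 15.03% in the last, and the Tet tcKO level at 4.73% and 3.71%. The fall thus went from 14.7 to 11.3 points, and the share kept stayed between 24.2% and 24.7% in all 20 bins. The share of CpGs in a loss was level in the interior, at 48.3% to 52.8% after the first bin, which held 23.5%.

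**Figure D4:**
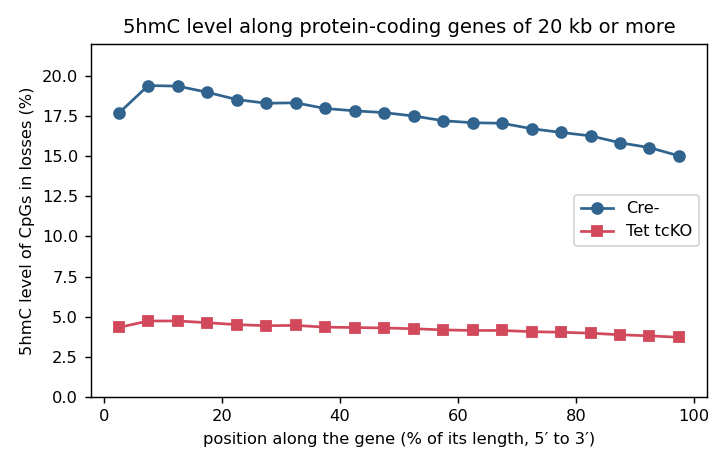
The 5hmC level (%) of CpGs inside losses along protein-coding genes of 20 kb or more, in 20 bins of equal length from the 5′ to the 3′ end, for Cre- and Tet tcKO. The Cre- level declines from 19.4% in the second bin to 15.03% in the last, and the Tet tcKO level from 4.73% to 3.71%.

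In each gene part, the 2 losses with the greatest summed fall, that is the number of CpGs times the fall, are described next. The intronic loss in Gtf2ird1, a transcription factor gene, ran over 23082 bp (chr5:134430441-134453522) with 376 CpGs and went from 35.4% to 9.58%. The next intronic one lay in Egln1, which encodes an oxygen-sensing prolyl hydroxylase, and went from 29.5% to 6.84% over 423 CpGs. The leading promoter loss covered 19808 bp at a start site of Lifr, the leukaemia inhibitory factor receptor, and went from 30.7% to 8.61%. The second took in a start site of Gigyf1, with 25.1% and 6.28%. Among 5′ UTR losses, the one in Nrip1, a nuclear receptor corepressor, went from 27.7% to 7.16%. Another took in an annotated start site of Tulp1, which encodes a photoreceptor protein of ciliary transport, without reaching the 5′ end of the gene, and went from 23.5% to 5.37%. The losses in Map1b, a microtubule-associated protein of neurons, and Spen, a transcriptional corepressor, led the coding exons. Map1b went from 25.6% to 6.68% over 284 CpGs, while Spen had more CpGs, 446, but a lower level, from 14.2% to 3.72%. The remaining leaders were in Tceanc2 and Icmt with Rnf207 for the 3′ UTR, in Fto and Lncpint for noncoding exons, and by Abhd17a and Gm11770 for intergenic midpoints. All 14 were longer than 5 kb and overlapped a WGBS region of higher modified cytosine, beside 92.0% of all losses of 5 kb or more. The overlap could be small, with 717 of 13758 bp in the Gigyf1 loss. In the 14, the share kept ran from 22.9% to 34.8%, with Lncpint, a long noncoding RNA, at the top.

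Per gene, the share of CpGs lying in a loss varied far more than the share of 5hmC kept. Among 17633 autosomal protein-coding genes with at least 50 CpGs, the median gene had 42.8% of its CpGs in losses, with 10% of genes below 9.89% and 10% above 70.3%. In 6678 genes (37.9%) it was at least 50%, and 6541 genes (37.1%) had at least 1 CpG in a loss of at least 20 points. In the 16768 genes with any loss the Cre- level had a median of 14.7% and the Tet tcKO level one of 3.50%, and the share kept had a median of 23.8%, with 80% of genes between 19.1% and 27.7%. Genes that overlap share CpGs and are not independent. Genes of 100 to 300 kb had the highest median share of CpGs in losses, 47.4%, and those of 300 kb or more the lowest, 35.3%.

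Of the genes with at least 200 CpGs and at least 50% of these in losses, the 10 with the largest mean fall started from 31.2% to 36.8% in Cre-. Ywhae, a 14-3-3 protein, fell from 36.8% to 9.15% over 159 of 302 CpGs. Hnrnpc, an RNA-binding protein, fell from 36.6% to 9.05%. Pafah1b1, the dynein regulator also called Lis1, fell from 34.5% to 8.14%, and the phosphatase Ppm1d also from 34.5%, to 8.44%. Chsy1, which makes chondroitin sulfate chains, had 72.0% of its 736 CpGs in losses and fell from 34.6% to 8.63%. The splicing factor Rbm39, the homeobox protein Adnp, the kinase Nlk and the RNA-binding protein Raly followed, with falls of 24.7 to 25.5 points. In these 10 genes the share kept was 20.8% to 27.1%, against 19.1% to 27.7% in the middle 80% of genes.

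Among genes with at least 200 CpGs, the 10 covered most completely were 6.08 to 19.97 kb long, with 0.899 to 4.20 CpGs per 100 bp around their start. All 225 CpGs of Gigyf1 lay within 1 loss. Sema3b, a secreted axon guidance protein, followed with 96.9% in losses, Cpsf4l with 96.7%, and Gpr179, a receptor of rod bipolar cell dendrites, with 96.1%. Gpr179 fell from 18.9% to 5.02%. Padi6, Fes, Acvrl1, Pi16, Ptger1 and Apobec2 had 92.1% to 94.4%. Ptger1, a prostaglandin receptor, had the lowest Cre- level of the 10 at 9.47%, and kept the most, 29.8%. At the other end, 162 of 11463 genes with at least 200 CpGs had none in a loss. The largest of these by CpGs were Skint5 with 2284 and Skint6 with 2229, followed by Cphx3, Gm16867 and Gm28308. The Skint genes belong to a family of near-identical copies, in which reads may not be placed uniquely, and coverage was not analysed here. Skint5 and Skint6 were also sparse in CpGs, with 0.438 and 0.462 per 100 bp beside a median of 1.28 in all genes. The part of this was not tested.

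Rod genes had wide losses from a high control level. Of 12 measured rod genes, 10 had at least 50% of their CpGs in losses, or 83.3%, beside 37.9% of all genes, and their median was 68.7% against 42.8%. A loss of at least 20 points was present in 11 of the 12, or 91.7%, beside 37.1% of all genes. The median rod gene stood at 25.4% in Cre- and 5.53% in Tet tcKO, above the 14.7% and 3.50% of all genes, and kept 24.2%. Sag, the rod arrestin, had 83.6% of its 391 CpGs in losses and went from 30.7% to 6.83%. Samd7, a chromatin repressor of rods, had 83.0% and went from 26.8% to 7.77%. Cngb1, a subunit of the rod light-gated channel, had 80.3% and went from 19.6% to 4.57%. Gnb1, a transducin subunit, went from 30.5% to 7.63%, and Pde6b, a subunit of the rod phosphodiesterase, from 27.3% to 5.88%. The lowest were Gnat1, the alpha subunit of rod transducin, with 37.7% of CpGs in losses and levels of 15.4% and 3.94%, and Nrl, the transcription factor that sets rod fate, with 32.4%, 12.7% and 3.85%. Nrl, a short gene, had no loss of 20 points within its ends. With 5 kb of flank on each side all 12 rod genes had one, and each had at least 53.9% of its CpGs in losses.

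Cone genes were also widely covered, but from a lower level. Of 11 cone genes, 7 (63.6%, beside 37.9% of all genes) had at least 50% of CpGs in losses, with a median of 56.6%. A loss of at least 20 points was present in 4, or 36.4% beside 37.1%. The median Cre- level was 14.6%, and 24.7% of it was kept. Gnb3, Gngt2 and Gnat2, which encode cone transducin subunits, had 82.0%, 80.6% and 78.2% of their CpGs in losses. Gnb3 went from 25.9% to 8.29%. The cone phosphodiesterase gene Pde6c and the cone channel gene Cngb3 were lowest, with 46.7% and 23.2%, and Cre- levels of 13.1% and 12.2%. Among 15 genes used by both photoreceptor types, 11 (73.3%, beside 37.9% of all genes) had at least 50% of CpGs in losses and 10 (66.7%, beside 37.1%) had a loss of at least 20 points. Guca1b, a calcium sensor of the light response, had 97.1% and went from 23.6% to 4.59%. Tulp1 and Guca1a followed with 78.3% and 76.0%. The transcription factors Otx2 and Neurod1 had 9.76% and 3.15%, and Neurod1 stood at 4.31% in Cre-, but with 5 kb of flank on each side every gene of this list had at least 24.6% of its CpGs in losses and stood at 10.4% or more in Cre-. Genes chosen as photoreceptor markers differ from all genes in length and promoter type: 66.7% of the rod genes and 45.5% of the cone genes had CpG-poor start sites, beside 25.1% of all genes, and the part of this in their share was not tested.

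Markers of the other retinal cell types covered a wide range. Bipolar cell genes had a median of 37.6% of CpGs in losses, with Gng13 at 86.3% and Prkca at 76.0%, and with Bhlhe23 and Isl1 at 0. Muller glia genes had a median of 59.8%, led by Rlbp1, the retinaldehyde-binding protein, at 84.9%, then Kcnj10 and Dkk3, with Abca8a at 11.1% and Sox9 at 6.25%. Amacrine cell genes had a median of 24.5%: the glycine transporter gene Slc6a9 had 74.3%, Th 58.3% and Calb2 44.9%, and Slc32a1 and Tfap2b none. Ganglion cell genes had the lowest median of the retinal cell lists, 16.3%, with Rbpms at 53.2%, Thy1 at 50.96% and Ebf1 at 48.8%, and with no CpG of Pou4f1 or Pou4f2 in a loss. Horizontal cell genes had 37.9%, from Prox1 at 61.9%, Slc4a5 at 52.4% and Onecut2 to Onecut1 at 22.9% and Lhx1 at 0. The progenitor list had 35.1%, with Foxn4 at 69.5%, Top2a at 49.1% and Mki67 at 40.8% on top and Lin28b and the Notch effector Hes1 at 10.7% and 5.81%. Apart from Slc32a1, a transporter gene, the genes of these lists without a loss encode transcription factors. These lists also differ from all genes in length and start sites. The ganglion cell genes had a median length of 6.32 kb and 6.99 CpGs per 100 bp around the start, beside 23.3 kb and 5.09 in all genes. The part of this in their share was not tested.

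Non-neuronal cells that do not arise from the progenitors were included as well. Microglia genes had a median of 58.2% of CpGs in losses, with C1qc at 70.7%, C1qa at 67.2% and Csf1r and P2ry12 lowest at 41.4% and 39.8%. Their median Cre- level was 12.2%. Vascular endothelium genes had 42.9%, with Kdr at 69.5%, Pecam1 at 65.4% and Flt1 at 45.7%, Cldn5 at 32.2% and Tek at 12.4%. In whole retina these values need not come from the cells that the genes mark. The median share kept was 23.6% and 23.5% in these lists, next to 23.8% in all genes.

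Genes of DNA methylation and its removal were near the median of all genes, with 40.5% of CpGs in losses. Tet3 led, with 75.6% of CpGs in losses and a level that went from 28.4% to 7.75%, followed by the methyltransferase Dnmt3a with 72.4% and Mbd2 with 63.2%. Tet2 had 61.2% and Tet1 52.6%. At the bottom, Gadd45a had 1 CpG in a loss and Gadd45g none. Ribosomal protein genes had a median of 25.7%, with Rpl7l1, Rpl22 and Rpl3l highest and Rps21 and Rps27a at 0. The losses they did have stood at a median of 18.2% in Cre-. Ionotropic glutamate and GABA-A receptor genes had 23.9%, from Grik3 at 79.8%, Gabrr2, a rho subunit of GABA receptors, at 79.3% and Grin3b at 70.98% down to Gabrg1 at 1.701% and Gabra6 at 0. Hox genes, which pattern the body axis, had 3 of 39 members with any loss, Hoxd1, Hoxa9 and Hoxb3, beside 16768 of all 17633 genes, and Hoxd8 and Hoxd9 were among the others. With 5 kb of flank on each side, 11 of the 39 had one. Olfactory receptor genes had a median of 10.8%, and 56 of 168 had none, Olfr981 and Olfr982 among them, beside 865 of 17633 genes. Olfr70, Olfr71 and Olfr1419 led with 95.9%, 86.2% and 65.9%. The olfactory receptor list and the glutamate and GABA-A receptor list had median densities of 0.684 and 0.736 CpGs per 100 bp. The median of all genes was 1.28, and the part of this in their shares was not tested. Keratin genes, which mark epithelia, were widely covered, with a median of 60.4% beside the 56.6% of cone genes, from Krt24, Krt42 and Krt28 at 93.8%, 90.8% and 82.8% to Krt34 and Krt32 at 11.5% and 11.1%. Their Cre- level was low, with a median of 11.1%, and 2 of 48 (4.17%, beside 37.1% of all genes) had a loss of at least 20 points.

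**Figure D5:**
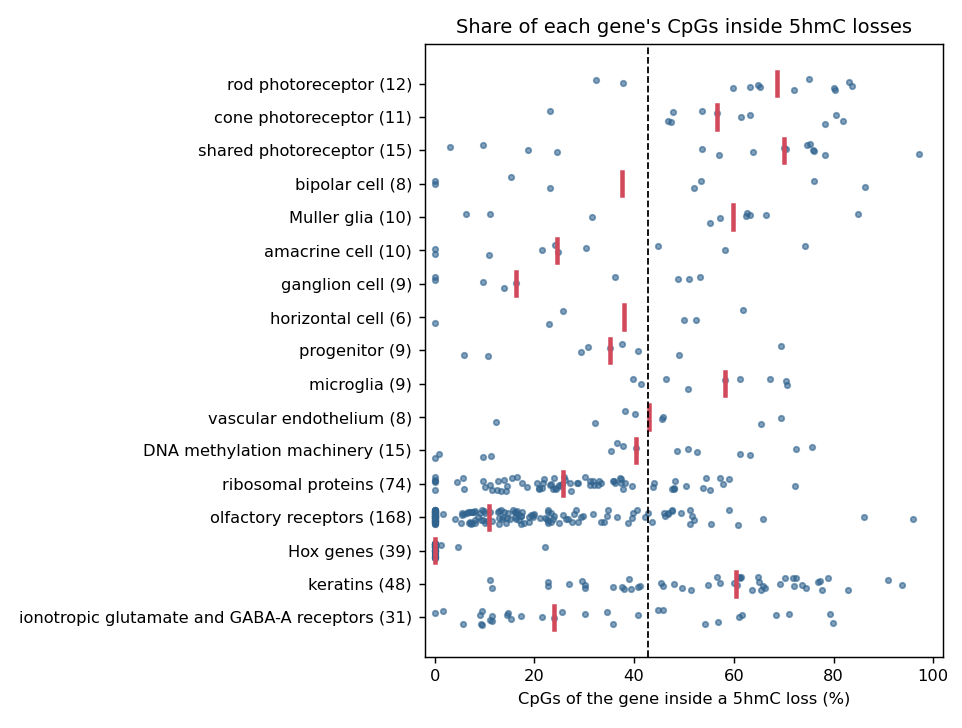
The share of each gene's CpGs that lie inside 5hmC losses (%, 1 point per gene, with the number of measured genes in brackets), the median of each list (red bar) and of all genes (dashed line, 42.8%). Rod, cone and shared photoreceptor genes have medians of 68.7%, 56.6% and 70.1%, and 36 of the 39 Hox genes lie at 0.

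Losses overlapped WGBS regions of higher modified cytosine in 24.4% of cases, and those of lower modified cytosine in 0.135%. The overlap grew with the starting level, from 8.27% in losses below 5% to 51.8% in those of 30% or more. It grew likewise with length, from 10.5% under 250 bp to 92.0% at 5 kb or more. A longer region meets another more easily, and the part of this was not tested. The share of bases in a WGBS gain also rose with length, from 8.64% to 22.5% in the same classes. Within a single length class of 500 to 1000 bp, the overlap was 14.9% below 5%, 11.7% from 5% to 10% and 42.9% at 30% or more. As a share of bases, 6.13% of the sequence of losses that fell by less than 5 points lay in a WGBS gain, 21.8% of that of losses that fell by 20 to 30 points, and 19.7% at 30 points and over. By gene part the share overlapped was 31.3% in promoters, 26.1% in introns, 21.0% between genes and 19.3% in coding exons. By density of the loss it was 21.1% under 1 CpG per 100 bp, 28.7% at 1 to 2 and 11.0% at 5 or more. By density of the surrounding 1 kb it was 18.2%, 28.1% and 23.8% in the same classes, with the highest value, 34.7%, at 2 to 3. Both lists were chosen for a difference between the same groups, so this overlap is a description.

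Short motifs known from photoreceptor regulation were searched on both strands in 300 bp windows around the midpoints of the 538209 losses outside promoters. TAATCC is the core bound by Crx and Otx2, TGCTGAC a site of Nrl, AGGTCA a site of nuclear receptors and CAGATG an E-box, and each was compared with its letters in reversed order, which have the same base composition. The end of TGCTGAC can overlap the reverse complement of AGGTCA. The motif TAATCC was in 6.404% of windows of losses that fell by less than 5 points and in 20.0% of those that fell by 20 or more, against 11.8% of all 300 bp windows of the autosomes outside promoters. It also occurs in repeats, and the Stn1 sequence above holds it. In unmasked bases alone the shares were 3.09% and 11.5%, against 6.82%, and the reversed letters CCTAAT were in 3.88% and 8.62%, against 7.36%. The ratio of TAATCC to its reversed form therefore went from 0.795 to 1.33 with the size of the fall, with a value of 0.927 over all windows. For AGGTCA in unmasked bases this ratio was between 0.964 and 1.01 in all classes of fall, near the 0.943 of all windows. CAGATG was in 20.1% of loss windows and 14.8% of all windows, and TGCTGAC in 4.51% and 3.07%, in unmasked bases. These shares did not rise throughout with the size of the fall. CAGATG was in 21.3% at 10 to 15 points and 18.9% at 20 or more, and TGCTGAC was in 4.74% of windows at 5 to 10 points and 3.90% at 20 or more. The share of TAATCC did not either, with 12.2% at 15 to 20 points and 11.5% at 20 or more. The ratio of TGCTGAC to its reversed form rose at each step, from 3.78 to 7.08, below the 7.63 of all windows. Its reversed letters, CAGTCGT, went from 0.964% in the lowest class to 0.551% in the highest, against 0.403% in all windows. They hold a CpG, which no other motif or reversed form here does. The ratio for TGCTGAC thus cannot separate the motif from the CpG content of the windows. For CAGATG the ratio was 3.04 at 10 to 15 points and 2.74 at 20 or more, against 2.44 in all windows. Letters in a window are not evidence of binding.

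The 194 gains were short, CpG-dense and often repetitive. They had a median length of 196.5 bp, 9 CpGs, and 5.64 CpGs per 100 bp, and went in the median from 4.88% to 13.3%. Of them, 109 (56.2%) were intergenic, 68 (35.1%) intronic and 14 (7.22%) in promoters, compared with 36.4%, 50.7% and 7.56% of losses. More than 50% of the bases were soft-masked in 105 gains, or 54.1%, compared with 10.9% of losses. Gains overlapped a WGBS gain in 15 cases (7.73%, beside 24.4% of losses) and a WGBS loss in 6 (3.09%, beside 0.135% of losses). Losses of the shortest length class overlapped a WGBS gain in 10.5% and a WGBS loss in 0.197%. Losses with 5 or more CpGs per 100 bp did so in 11.0% and 0.822%. Within 1 kb of a loss lay 70 of the 194, but the share of all sequence lying this close to a loss was not computed. The largest rises among gains with 5 or more CpGs were outside exons. After the tandem repeat on chromosome 8 already shown, 19418 bp from Gm33968, came a stretch of 13 CpGs in an intron of Mrap2, a melanocortin receptor accessory protein, from 3.91% to 38.2%. The next 3 lay on chromosome 7 near Vmn1r149, Scgb1b10 and Gm29129, with levels in Tet tcKO of 33.9%, 34.2% and 45.3%, and all bases of each were soft-masked. Promoter gains were of another kind. They had a median density of 12.8 CpGs per 100 bp. In the median they went from 0.654% to 2.11%, levels around the allowance of 2 points for background. Weighted by CpGs they went from 1.21% to 3.02%, which includes 1 gain of 12 CpGs near Bsnd, a chloride channel subunit gene, that stood apart from the others with 15.3% and 28.7%.

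Chromosomes differed little. The Cre- level of losses ran from 15.6% on chromosome 8 to 16.8% on chromosome 9, and the share kept from 23.4% on chromosomes 3 and 6 to 24.6% on chromosome 11. Gains numbered 3 on chromosome 19 and 17 each on chromosomes 1 and 8.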

How the data were processed

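DNA of whole retina at postnatal day 21 was profiled by bACE-seq and WGBS in 3 Cre- and 3 Tet tcKO libraries each. Per the study's methods and the submitters' processing notes, the authors trimmed reads with Trim Galore 0.4.4, used Bismark 0.18.2 to align them to mm10, kept mapping qualities of at least 10 with SAMtools 1.15.1, removed duplicates with GATK 4.1.3, extracted CpG counts with MethylDackel 0.6.1 and merged strands. Regions were called with DSS on smoothed levels, at p 0.01, with at least 50 bp and 3 CpGs. The deposited values used here are fractions, 1 mean level per group and region, printed as percent, beside each region's length and number of CpGs, which the authors' list gives as plain numbers. The deposited lists also hold the callers' difference and area statistic per region, which were not used. Depth is unknown from these lists, and library totals were not analysed here.

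Levels were averaged with the number of CpGs as weights, and the share kept is the ratio of the averages. Every listed region began and ended on a CpG of the RefSeq GRCm38.p6 sequence, and 97.4% held all reference CpGs. Gene parts came from GENCODE vM21 basic protein-coding and lncRNA transcripts (32093 genes), by region midpoint, with promoter as 2 kb either side of a start and the order promoter, 5′ UTR, coding exon, 3′ UTR, noncoding exon, intron, intergenic. A CpG inside a region was given the region's level. Sequences were read from RefSeq, with soft-masking as distributed. Genes named are those with the largest fall, highest or zero share of CpGs in losses, the list members at either end, and the 2 losses of largest summed fall in each gene part and 5 largest gains with 5 or more CpGs. Other members were named from the same lists after their values were seen: Gnb1, Pde6b, Tet1, Tet2 and, among the gains, Bsnd; motifs, printed sequences and distance profiles were also chosen after seeing the data. The regions, lists and alternatives were chosen with earlier results of these data known. Of the list genes, 4 had fewer than 50 CpGs or were not on an autosome. Functions were checked on simulated regions of known answer. Python 3.11.15, numpy 2.4.6, pandas 2.3.3, scipy 1.17.1 and matplotlib 3.10.9 were used. Some genes that the rule names are not reported here. No test was run, since replicates are pooled in the deposited means. Alternatives changed the filter, the weights, the baseline, the promoter size, the gene flank and the overlap required.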

Additional observations from a re-analysis of the deposited data

How the results depend on the processing

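A value was taken as moved when it changed by more than 10% of itself, and a count when it changed by more than 1.5 times, since neither spread nor depth is known. Of 33 alternatives over 11 results, 17 stayed within these limits, 16 moved and 0 changed direction. The share kept by CpG density was not among these results. With at least 10 CpGs per region, 256712 losses and 89 gains remained, the share kept differed by 2.55 points between the highest and the lowest starting level (2.87 over all losses), the Cre- level differed by 15.7 points between CpG-poor and CpG-dense losses (13.0 over all losses), and 21.3% of losses overlapped a WGBS gain when both lists were so restricted. With a difference of at least 10 points there were 329475 losses and 65 gains. With 2 points subtracted from both levels, the losses stood at 14.2% in Cre- and 1.88% in Tet tcKO, and the share kept was 13.3%. It differed by 11.6 points between the classes starting from 10% to 15% and from 30%, which kept 23.2% and 25.02% without subtraction. Classes starting below 10% were left out of this difference, so it does not span the same classes as the 2.87 points over all losses. With each region counted once, the Tet tcKO level was 3.43%, and the Cre- level of intronic losses exceeded that of promoter losses by 1.52 points, beside 2.35 points with CpG weights, 3.58 points with a promoter of 1 kb on each side and 1.21 points with 5 kb. When at least 50% of a loss had to be covered, 8.58% overlapped a WGBS gain. No paired analysis was possible because each group has 1 mean per region, and for the same reason no library could be left out.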
